A study of Mus musculus with 32 samples.

Results

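The genes described here are 36 genes of the lysosome, chosen by name from the 31053 genes of the count matrices and described across the cell types of osteogenic marrow cultures. They comprised 17 genes of the vacuolar proton pump (V-ATPase), namely 7 of its membrane sector V0, 8 of its cytosolic sector V1 and 2 accessory proteins, together with 9 cathepsins, 4 lysosomal membrane proteins, 5 hydrolases or lumenal carrier proteins and the transcription factor gene *Tfeb*. The rule that chose them uses no measured value, although they were chosen with earlier results of these data known. Each symbol matched 1 row of the matrices, and all 36 had UMIs in the cells studied.

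The cells, called BMSC-OBs, were adherent stromal cells of bone marrow grown in osteogenic medium, from 77 Diversity Outbred (DO) mice, an outbred population descended from several inbred founder strains. The samples were 16 pools (numbered 1 to 14, 17 and 18), each a mixture of the enzymatically digested cultures of 4 or 5 mice, profiled by droplet-based 3′ single-cell RNA-seq (scRNA-seq), which counts unique molecular identifiers (UMIs) per gene and droplet. No treatment separated the pools. Outbred mice differ in genotype, which the labels used here do not give by pool, so the comparisons were between cell types within pools. Each pool was sequenced in 2 runs of the same droplets, of which run HGYVNCCX2 was used. Mice within a pool were not separated here, the labels used here give no age, and a culture keeps only those marrow leukocytes that persist among adherent cells.

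Lysosomes are acidic organelles in which hydrolases digest proteins, lipids and glycans taken up or turned over by the cell. The V-ATPase pumps protons with energy from ATP, which its V1 sector hydrolyses and its V0 sector couples to proton passage, and most cathepsins are proteases that work best at the resulting low pH. Macrophages are rich in lysosomes, whereas osteoclasts, their bone-resorbing relatives, send lysosomal membrane to the cell surface and use V-ATPases with the a3 subunit (*Tcirg1*) and cathepsin K to dissolve mineral and collagen, and TFEB is a transcription factor known for driving lysosomal genes.

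Cells were assigned to types by marker genes that include none of the 36. Of 107853 barcodes, 84347 remained after quality limits and removal of called doublets, with 53990642 to 100777353 UMIs per pool before filtering. They included 59008 mesenchymal cells (1409 to 5961 per pool), 11090 macrophage-like cells (225 to 1992 per pool) and 130 osteoclast-like cells. Among macrophage-like cells, 4213 were led by the C1q and Stab1 marker list, 3319 by *Gpnmb* and *Trem2* and 1688 by MHC class II genes and *Ear2*, and 1870 by none of these. Osteoclast-like cells were required to carry at least 4 of 7 markers such as *Acp5* and *Dcstamp*. They were concentrated in pool 1 (63 cells), pool 2 (26), pool 13 (10) and pool 9 (7), and the other pools held 0 to 4. Summed expression of those 7 markers was 16170.1 to 46305 CPM (UMIs per 1000000 UMIs of the pool and type) in osteoclast-like cells of the 4 pools with at least 5 such cells. Over all 16 pools it was 237 to 735 CPM in macrophage-like cells and 10.7 to 91.2 CPM in mesenchymal cells, and none of the 7 was at 0 over the pools in any of the 3 types. Of all barcodes, 3061 (2.84%) occurred in more than 1 pool, and they were kept as separate cells.

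Expression levels are CPM of the UMIs summed per pool and cell type, in pools with at least 20 cells of the type (at least 5 for osteoclast-like levels). A 3′ UMI count is not scaled by transcript length, so levels of a gene were compared between cell types and not with levels of another gene. A level is a share of the UMIs and not a number per cell, and the median cell held 12619 UMIs among mesenchymal, 5376.5 among macrophage-like and 10533.5 among osteoclast-like cells. Differences are log2 fold changes ± standard error from edgeR's quasi-likelihood test on the summed counts with the pool as a block, called at a Benjamini-Hochberg adjusted p of 0.05 over all genes tested. Droplets also capture free RNA. In mesenchymal cells, 8 leukocyte genes used in no marker list had medians of 0.636% to 9.64% of their macrophage-like level (median 0.87%), and 8 stromal genes used in no list had 3.36% to 5.07% of their mesenchymal level in macrophage-like cells. Their part in the levels of other genes was not tested beyond the shares given below.

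Almost every gene of the set took a larger share of the UMIs in macrophage-like than in mesenchymal cells. Of 36 genes, 33 were higher and 3 lower, and the median log2 difference was 1.75, against -0.07 over the 13258 genes tested. Over all of those genes, 40.1% were called higher and 45% lower. Counted as UMIs per cell, with the median over pools taken for each type apart, 26 of the 33 were also higher in macrophage-like cells. *Atp6v0e*, *Atp6v1d*, *Atp6v1g1*, *Atp6ap2*, *Lamp2*, *Npc2* and *Mcoln1* were not, with *Lamp2* at 2.43 against 3.37 UMIs per cell. Such unpaired medians can differ in a direction that most pools do not share. The difference in share covered 16 of 17 V-ATPase genes (median 1.51), 7 of 9 cathepsins (median 2.06), 4 of 4 membrane proteins, 5 of 5 hydrolases and lumenal carriers and *Tfeb* (2.53 ± 0.09). All 8 V1 genes were higher, by 0.74 to 3.16.

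The largest difference was that of *Ctss* (ENSMUSG00000038642, chr3:95526786-95556403 in GRCm38), the cathepsin of antigen-presenting cells, which trims the invariant chain of MHC class II. Its lowest, median and highest levels over the 16 pools were 1059, 1567 and 2299 CPM in macrophage-like cells and 5.74, 11.6 and 50.7 CPM in mesenchymal cells, a log2 difference of 6.87 ± 0.20 (edgeR adjusted p = 2.1e-18), and the ranges did not overlap. The mesenchymal level was 0.811% of the macrophage-like one in the median pool, within the range of the 8 leukocyte genes. The same share was 4.65% for *Ctsb*, 4.94% for *Tcirg1*, 6.87% for *Psap* and 7.94% for *Lipa*, also within that range. The mesenchymal levels of these 5 of the 36 genes were therefore not distinguishable from free RNA here, in this and the later comparisons with mesenchymal cells. Cathepsin B, a cysteine protease of broad specificity, was at 4531, 5978 and 8338 CPM against 202, 277 and 429.9 CPM (log2 difference 4.39 ± 0.09). Prosaposin, the precursor of the saposins that help to degrade sphingolipids, was at 3256, 4602 and 5841 CPM against 230.5, 318 and 409 CPM (3.80 ± 0.09). Neither gene overlapped between the types in any pool.

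*Tcirg1* (ENSMUSG00000001750, chr19:3896050-3907133), the a3 subunit of V0, was at 222, 301 and 546 CPM in macrophage-like and 9.16, 15.9 and 28.1 CPM in mesenchymal cells, with a log2 difference of 4.25 ± 0.10. Its paralog *Atp6v0a1* differed by 2.11 ± 0.09, while *Atp6v0a2*, the a2 subunit known for the Golgi and endosomes, was lower by 0.68 ± 0.08. Levels of *Atp6v0a2* were 8.72, 19.3 and 26.3 CPM in macrophage-like cells and 19.8, 29.7 and 36.7 CPM in mesenchymal cells, and these ranges overlapped, although the gene was lower in 16 of 16 pools. The 3 V0 a-subunit genes therefore took different directions within the same cells. *Lipa*, the acid lipase that cleaves cholesteryl esters, was at 180.0, 276 and 564 CPM against 14.3, 22.1 and 29.3 CPM (3.64 ± 0.10), without overlap.

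Besides *Atp6v0a2*, the genes with higher levels in mesenchymal cells were cathepsins F and H. *Ctsf* was at 14.1, 25.4 and 38.8 CPM in macrophage-like cells and 43.6, 62.8 and 91.2 CPM in mesenchymal cells (-1.26 ± 0.09), and the ranges did not overlap. *Ctsh*, an aminopeptidase, was at 71.3, 118 and 190.0 against 116, 238 and 314 CPM (-0.88 ± 0.14), with overlapping ranges. The macrophage-like level was 40.8% of the mesenchymal one for *Ctsf*, the lowest of the 36, and thus above the 3.36% to 5.07% of the stromal genes. In cells thinned to 2000 UMIs each, *Ctss* was detected in 88.7% of 10376 macrophage-like cells and 4.59% of 48957 mesenchymal cells, and *Tcirg1* in 43.6% and 3.87% (unthinned 96.8% and 14.9%, and 70.8% and 19.1%). Thinning left out 714 macrophage-like and 10051 mesenchymal cells with fewer UMIs. The leukocyte genes *Cybb* and *Spi1*, which stromal cells should lack, were detected in 2.27% and 1.49% of the thinned mesenchymal cells.

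**Figure D1:**
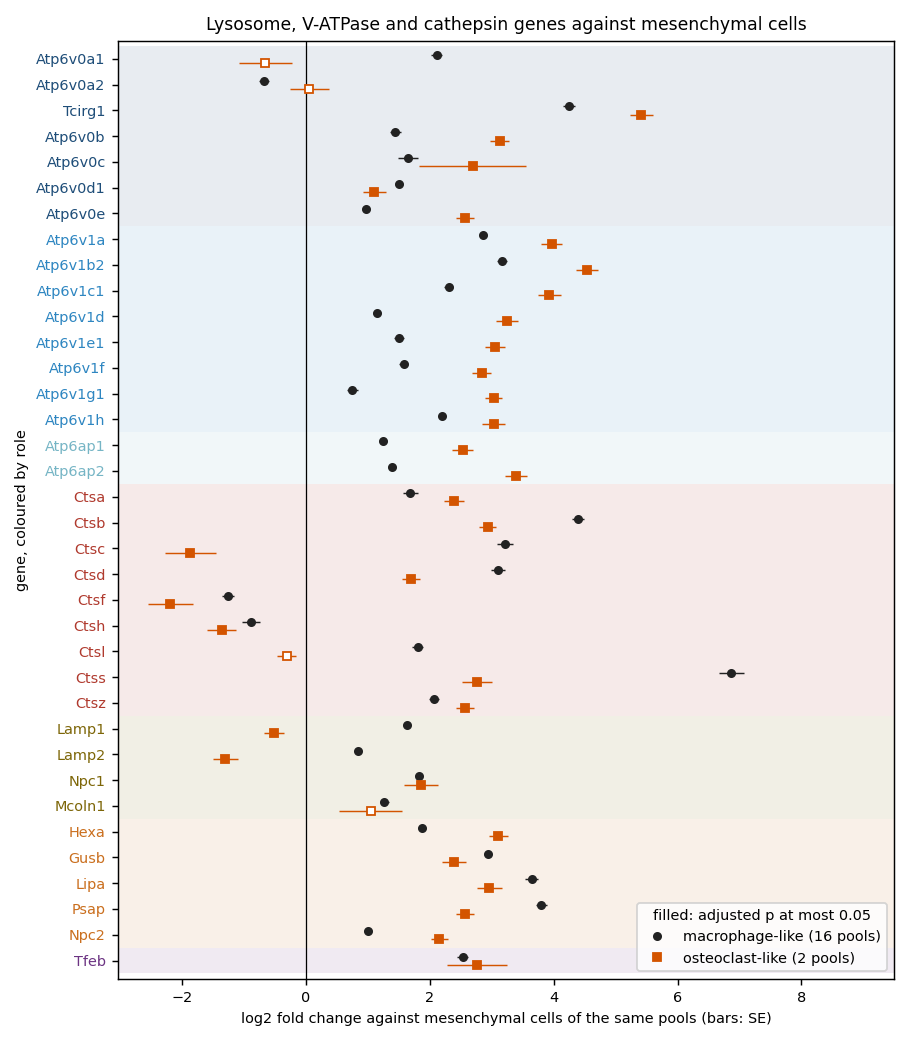
Log2 fold change against mesenchymal cells for each of the 36 genes in macrophage-like cells (16 pools) and osteoclast-like cells (2 pools), with bars of 1 standard error, from edgeR. Most points lie above 0 in both types, with *Ctss* at 6.87 and *Tcirg1* at 4.25 and 5.41, while *Ctsc*, *Lamp1* and *Lamp2* lie above 0 in macrophage-like and below 0 in osteoclast-like cells.

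Of 50 other lysosome genes, 40 were higher and 6 lower in macrophage-like cells, with *Laptm5* (6.82), *Slc11a1* (6.46) and *Cd68* (6.45) at the upper end and *Laptm4b* (-1.26), *Laptm4a* (-1.25) and *Gaa* (-0.89) at the lower. Of the genes named here, the mesenchymal levels of *Laptm5*, *Slc11a1*, *Cd68*, *Tfec*, *Mitf* and *Atp6v0d2* were 0.828% to 7.93% of the macrophage-like ones in the median pool, within the free RNA range. The relatives of *Tfeb* were also higher, with log2 differences of 6.80 ± 0.21 for *Tfec*, 3.54 ± 0.07 for *Mitf* and 1.90 ± 0.05 for *Tfe3*. Of the regulators of these factors, *Flcn* (1.93), *Rragc* (1.78), *Fnip1* (1.61), *Rragd* (1.29) and *Rptor* (1.15) were higher and *Mtor* (-0.24) was lower, and *Rraga* was not called (-0.02 ± 0.05, adjusted p = 0.782). Outside the 36, *Atp6v0d2* (6.66 ± 0.28), the d2 subunit, and *Ctsk* (1.65 ± 0.23) were higher and *Atp6v1c2* was lower (-3.91), whereas *Atp6v1g2* (0.17 ± 0.24, adjusted p = 0.508) and *Atp6v0e2* (0.61 ± 0.31, adjusted p = 0.0758) were not called.

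TFEB and its relatives bind the E-box CACGTG, best known at lysosomal genes in the longer form TCACGTGA, so the promoters were searched for both strings. Promoter sequences from RefSeq (GRCm38.p6, 250 bases before to 50 after the transcription start) matched 28 of the 36 genes, and both strings read the same on either strand, with the longer containing the shorter. CACGTG occurred in 10 of the 28 (35.7%), against 8.09% of all 27025 genes with a promoter (7.15% of single windows of this length). TCACGTGA occurred in 6 of 28 (21.4%), against 1.12% of all genes (0.974% of windows). Of the other lysosome genes, 39 matched, with 25.6% and 12.8%. The 7 copies of the longer string are shown because the string was more frequent among these genes than among all promoters, although 22 of the 28 lack it, each 5′ to 3′ on the strand of the gene with TCACGTGA in capitals.
Atp6v0d1, chr8:105566051-105566078, minus strand: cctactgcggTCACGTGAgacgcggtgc
Atp6v0e, chr17:26676388-26676415, plus strand: agcgcgccgaTCACGTGAgcctctgttg
Atp6v1a, chr16:44139374-44139401, minus strand: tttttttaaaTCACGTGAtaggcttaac
Ctsa, chr2:164833750-164833777, plus strand: gagcaaactgTCACGTGAtgcagatgct
Ctsa, chr2:164833767-164833794, plus strand: atgcagatgcTCACGTGAccagagctac
Ctsd, chr7:142387909-142387936, minus strand: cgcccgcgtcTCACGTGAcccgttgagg
Mcoln1, chr8:3500463-3500490, plus strand: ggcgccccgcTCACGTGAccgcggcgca

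The 2 copies at *Ctsa* flank its transcription start. *Lamp1* had no copy of the longer string but 4 of CACGTG, as in the window at chr8:13159105-13159132 on the plus strand, where CACGTG is in capitals.
Lamp1: ggtccagcgccCACGTGatgccgactgg
A string match is a description of the promoter and not evidence of binding, and genes with the string took both directions in the comparisons that follow, as with *Atp6v1a* and *Lamp1* in osteoclast-like cells.

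All 3 macrophage subtypes showed the same broad difference from mesenchymal cells, and because they share those mesenchymal cells their values are given side by side. In C1q/Stab1 macrophages, 33 genes were higher and 3 lower (background 35% and 47.5%), with a median of 1.70 against -0.19 over all genes. In Gpnmb/Trem2 macrophages, 33 were higher and 3 lower (background 33.3% and 47.7%), with a median of 1.63 against -0.24. In MHC class II/Ear2 cells, which 10 pools held in number, 33 were higher and 2 lower (background 27.6% and 40.2%), with a median of 1.46 against -0.22. The genes lower in C1q/Stab1 and Gpnmb/Trem2 macrophages were again *Ctsf*, *Ctsh* and *Atp6v0a2*, and *Ctsh* was not called in MHC class II/Ear2 cells (-0.17 ± 0.16, adjusted p = 0.349). As UMIs per cell, by unpaired medians over pools, fewer of the 33 genes called higher were also higher. They numbered 23 in C1q/Stab1 macrophages, 27 in Gpnmb/Trem2 macrophages and 25 in MHC class II/Ear2 cells.

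Of the 36 genes, *Ctss* had the largest difference in each subtype, with log2 differences of 6.76 ± 0.18, 6.71 ± 0.19 and 6.59 ± 0.28 in C1q/Stab1, Gpnmb/Trem2 and MHC class II/Ear2 cells, and *Ctsb* differed by 4.36, 4.48 and 3.69. *Tcirg1* differed by 3.75 ± 0.08, 4.76 ± 0.11 and 3.52 ± 0.14, and *Ctsc* by 3.67 ± 0.09, 1.53 ± 0.12 and 3.67 ± 0.15. *Psap* differed by 3.48, 3.88 and 3.67, and *Lipa* by 3.71, 3.51 and 3.18. Of the other lysosome genes, 40, 35 and 35 were higher and 6, 11 and 5 lower, with *Laptm5*, *Slc11a1* and *Cd68* the 3 largest in each. *Tfec*, *Mitf*, *Tfe3*, *Flcn*, *Rragc*, *Fnip1*, *Rptor* and *Rragd* were higher in every subtype, *Mtor* was lower only in the call for C1q/Stab1 macrophages (-0.47 ± 0.09) and *Rraga* was called in none. *Atp6v0d2* differed by 3.77, 7.84 and 5.77. *Ctsk* was higher in Gpnmb/Trem2 (2.34 ± 0.18) and MHC class II/Ear2 cells (1.25 ± 0.38) and not called in C1q/Stab1 macrophages (0.39 ± 0.30, adjusted p = 0.232). *Atp6v1c2* was lower in all 3, *Atp6v0e2* was higher in C1q/Stab1 and Gpnmb/Trem2 macrophages, and *Atp6v1g2* was called in none.

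Within the macrophages, Gpnmb/Trem2 cells had higher levels of most V-ATPase genes and of cathepsin L than C1q/Stab1 cells and a lower level of cathepsin C. Over 16 pools, 19 of 35 genes tested were higher and 8 lower (background 33.7% and 31.9%), with a median of 0.21 against 0.02 over all genes. By role, 11 of 16 V-ATPase genes were higher, including 7 of 8 of the V1 sector, and 1 was lower. The cathepsins were divided, with 5 higher and 2 lower, and of the 4 membrane proteins 1 was higher and 2 were lower. Of the 5 hydrolases and lumenal carriers *Psap* was higher (0.50 ± 0.06) and *Hexa* (-0.27 ± 0.06), *Gusb* (-0.16 ± 0.05) and *Npc2* (-0.10 ± 0.04) were lower. As UMIs per cell, by unpaired medians over pools, *Gusb* (1.67 against 1.58) and *Npc2* (7.67 against 6.35) were instead higher in Gpnmb/Trem2 macrophages. Without pool 1, *Atp6v1e1* (0.13) and *Mcoln1* (0.18) were no longer called. *Atp6v0c* was not tested because its counts were too low.

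*Ctsl*, a cysteine protease, was at 2378, 3311 and 6422 CPM (lowest, median and highest pool) in Gpnmb/Trem2 macrophages and 858, 1228 and 1711 CPM in C1q/Stab1 macrophages, and was higher in 16 of 16 pools (1.33 ± 0.08, adjusted p = 6.2e-15). *Tcirg1* was at 313, 544 and 861 against 167, 227 and 280.0 CPM (1.10 ± 0.08). *Atp6v1b2*, the B2 subunit that forms the ATP-binding ring of V1 with the A subunit, was at 373, 638 and 863 against 179, 271 and 328 CPM (1.08 ± 0.05). The ranges did not overlap for any of these 3 genes. *Atp6v1c1*, the C1 subunit of V1, was at 213, 263 and 383 against 115, 139.6 and 199 CPM (0.81 ± 0.05), and *Tfeb* at 17.7, 36.9 and 57.2 against 9.53, 18.7 and 32.01 CPM (0.73 ± 0.10). The ranges of *Atp6v1c1* did not overlap and those of *Tfeb* overlapped.

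In the other direction, *Ctsc* (ENSMUSG00000030560, chr7:88278085-88310888), the dipeptidyl peptidase that activates granule serine proteases, was at 43.8, 75.6 and 104 CPM in Gpnmb/Trem2 and 241, 285 and 339 CPM in C1q/Stab1 macrophages. It was lower in 16 of 16 pools (-2.003 ± 0.07), and the ranges did not overlap. *Ctsf* was at 4.77, 21.98 and 34.00 against 19.05, 35.2 and 64.8 CPM (-0.85 ± 0.10). *Lamp1* and *Lamp2*, the abundant glycoproteins of the lysosomal membrane, were at 1075, 1335 and 1519.9 against 1369, 1630.2 and 1945 CPM (-0.45 ± 0.05) and at 272, 346 and 451 against 353, 451 and 541 CPM (-0.50 ± 0.05). *Atp6ap2*, the accessory protein also known as the prorenin receptor, was at 103, 141 and 176 against 143, 168 and 212 CPM (-0.41 ± 0.05). Cathepsin S did not pass the test (0.06 ± 0.05, adjusted p = 0.349).

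**Figure D2:**
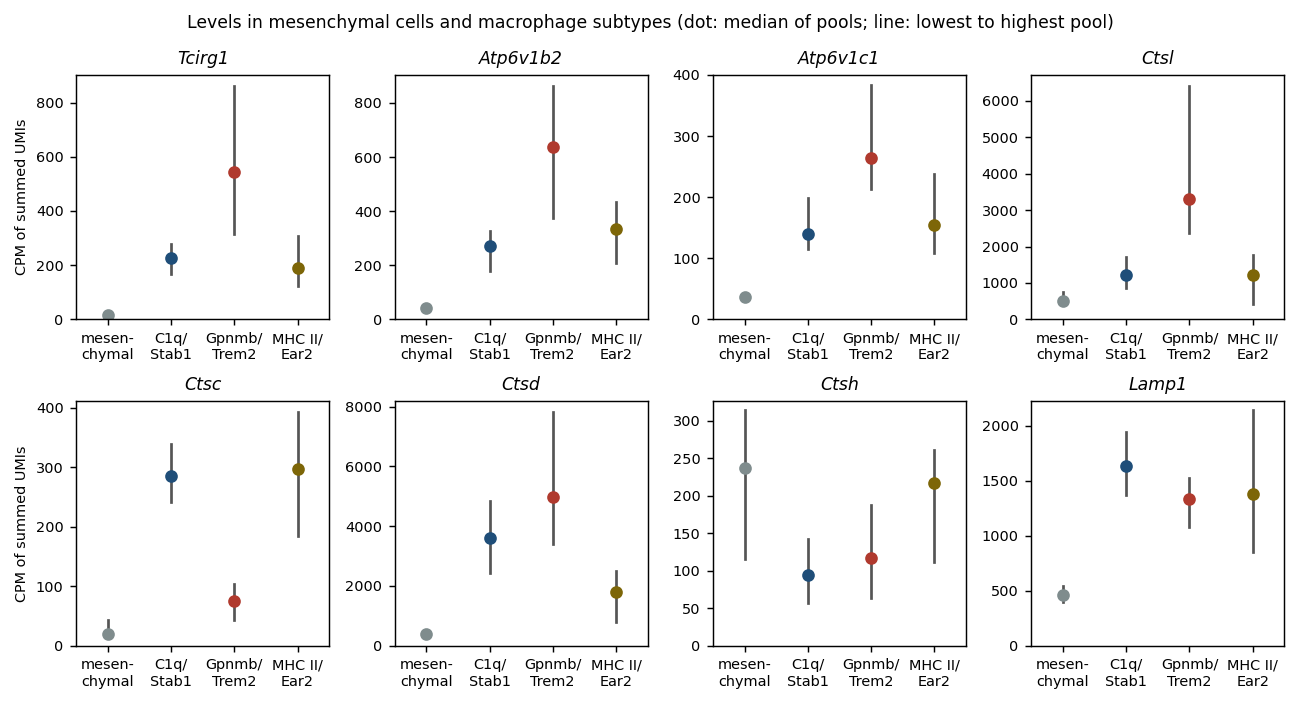
Levels (CPM, axes from 0) of 8 genes in mesenchymal cells and the 3 macrophage subtypes, with a dot at the median pool and a line from the lowest to the highest pool (10 pools for MHC class II/Ear2 cells, 16 otherwise). *Ctsl*, *Tcirg1* and *Atp6v1b2* sit highest in Gpnmb/Trem2 macrophages, which have the lowest *Ctsc* of the subtypes at a median of 75.6 CPM, and *Ctsh* sits highest of the subtypes in MHC class II/Ear2 cells at a median of 218 CPM.

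Of 48 other lysosome genes tested, 9 were higher and 27 lower in Gpnmb/Trem2 than in C1q/Stab1 macrophages, with *Gnptab* (0.78), *Gla* (0.73) and *Dnase2a* (0.50) at one end and *Arsb* (-2.44), *Man2b1* (-1.35) and *Ids* (-0.99) at the other. *Atp6v0d2* (4.10 ± 0.11) and *Ctsk* (1.97 ± 0.23) were higher. Of the regulators, *Rragd* (0.76), *Mtor* (0.37), *Rptor* (0.32) and *Rraga* (0.18) were higher, *Flcn* (-0.59), *Fnip1* (-0.44) and *Rragc* (-0.20) were lower, and *Mitf*, *Tfe3* and *Tfec* were not called (adjusted p = 0.232, 0.477 and 0.946). Of the 8 leukocyte genes used in no marker list, 7 were lower and 1 higher in the same comparison, with sums of 2297 to 3216 CPM in Gpnmb/Trem2 and 3297 to 4503 CPM in C1q/Stab1 macrophages, and their part in the result was not tested. When libraries were scaled by their totals alone, 24 genes were higher and 6 lower and the median of all genes moved from 0.02 to 0.17. The share of all genes called under that scaling is not given, so these counts have no background.

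MHC class II/Ear2 cells had a higher level of cathepsin H and a lower level of cathepsin D than C1q/Stab1 macrophages. Over 10 pools, 2 of 35 genes were higher and 7 lower (background 8.41% and 8.12%), with a median of -0.06 against 0.01 over all genes. Cathepsin H was at 111, 218 and 262 CPM in MHC class II/Ear2 cells and 62.6, 107 and 143 CPM in C1q/Stab1 macrophages of the same 10 pools, and was higher in 10 of 10 pools (1.14 ± 0.17, adjusted p = 2.3e-04). The other gene with a higher level was *Atp6v1b2*, at 208, 335 and 434 against 195, 269.9 and 328 CPM (0.38 ± 0.12, adjusted p = 0.0391), which was not called with run HHFFMCCX2 (0.34), library totals alone (0.29), no filter on low counts (0.32) or at least 5 cells (0.14). *Ctsd*, the main aspartic protease of lysosomes, was at 780.5, 1789.5 and 2515 against 2432, 3579 and 4488 CPM and lower in 10 of 10 pools (-1.03 ± 0.15).

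The remaining lower genes encode hydrolases and cathepsins. *Gusb*, or beta-glucuronidase, was at 110.3, 176 and 255 against 215, 301 and 376 CPM (-0.68 ± 0.13), and *Hexa*, a glycosidase that acts on gangliosides, at 226, 469 and 615 against 592, 709 and 831 CPM (-0.63 ± 0.12). *Ctsf* was at 5.75, 24.97 and 56.6 against 19.05, 37.04 and 64.8 CPM (-0.65 ± 0.19) and *Ctsb* at 1922, 4992 and 6028 against 5286, 6402 and 7244 CPM (-0.59 ± 0.15). *Lipa* (-0.53 ± 0.12) and *Ctsa* (-0.41 ± 0.10) completed the 7. No other V-ATPase gene was called than *Atp6v1b2*. Of 49 other lysosome genes, *Gm2a* (1.05) and *Sort1* (0.97) were higher and 13 lower, among them *Arsb* (-1.61) and *Galc* (-0.63). *Atp6v0d2* (2.10), *Ctsk* (1.18) and *Tfec* (0.53) were higher and *Flcn* (-0.59) was lower, and the other regulators were not called. Monocyte markers (3 genes, none at 0) summed to 347 to 14219 CPM in MHC class II/Ear2 cells and 1.90 to 96.6 CPM in C1q/Stab1 macrophages of the same pools, and granulocyte markers (8 genes, none at 0) to 52.4 to 2894 and 44.1 to 799.6 CPM. Their part in the result was not tested. With a minimum of 5 cells, which kept 16 pools, 1 gene was higher and 11 lower. With stricter marker gates, which kept 6 pools, *Ctsd* was the 1 gene still called lower (*Ctsa*, *Ctsb*, *Ctsf*, *Gusb*, *Hexa* and *Lipa* were not). Background shares under these alternatives are not given.

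Osteoclast-like cells had higher levels of most V-ATPase genes than mesenchymal cells and lower levels of cathepsin H and of both LAMP genes. Cathepsins C and F were also called lower, from few UMIs, and neither was called without pool 1. In the 2 pools with at least 20 osteoclast-like cells, 27 of the 36 genes were higher, 5 lower and 4 not called (background 16.1% and 22.1%), with a median of 2.57 against -0.28 over all genes. With the 4 pools of at least 5 cells, a choice made after seeing the cell numbers, 27 were higher and 7 lower (background 15.2% and 26.2%). The V-ATPase genes gave 15 higher and none lower in 2 pools, with *Atp6v0a1* (-0.65 ± 0.42, adjusted p = 0.232) and *Atp6v0a2* (0.06 ± 0.32, adjusted p = 0.909) not called. In 4 pools *Atp6v0a1* was lower (-1.07 ± 0.44), as was *Ctsl* (-0.85 ± 0.25). The fit on 2 pools has 1 residual degree of freedom, moderated over genes by edgeR, and on simulated counts it recovered 23.5% of genes changed by 1 on the log2 scale.

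Values for osteoclast-like cells are given for pools 1, 2, 9 and 13 in that order. *Tcirg1* stood at 954, 959.8, 1511 and 617 CPM in osteoclast-like cells against 21.6, 20.03, 17.7 and 28.1 CPM in mesenchymal cells (5.41 ± 0.18 in 2 pools, 5.19 ± 0.27 in 4). *Atp6v1b2* stood at 1207, 934, 1883 and 732 CPM against 44.7, 40.7, 43.4 and 52.6 CPM (4.53 ± 0.17 and 4.33 ± 0.26). For both genes the types did not overlap, and pool 9 was the highest osteoclast-like sample and pool 13 the lowest. *Atp6v1a*, the catalytic subunit of V1, differed by 3.97 ± 0.17, with 1296, 1047, 2131 and 1023 CPM against 68.1, 70.5, 76.3 and 75.9 CPM. *Atp6v1c1* (3.93 ± 0.19) stood at 624, 465, 722 and 388 CPM against 33.9, 32.6, 38.04 and 41.3 CPM, and *Atp6ap2* (3.39 ± 0.18) at 525, 569, 519 and 467 CPM against 52.5, 44.3, 60.7 and 60.7 CPM. All 8 V1 genes were higher, by 2.84 to 4.53.

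Among the genes with lower levels, *Ctsc* stood at 7.59, 19.4, 22.5 and 44.1 CPM in osteoclast-like cells against 42.7, 30.6, 25.4 and 26.6 CPM in mesenchymal cells (-1.87 ± 0.41), and pool 13 was the exception, with the higher level in osteoclast-like cells. Over 4 pools its difference was -1.25 ± 0.40 (adjusted p = 0.00624), and without pool 1 it was -0.42 ± 0.51 (adjusted p = 0.591), so the call for *Ctsc* rests on pool 1, where its osteoclast-like level comes from 6 UMIs. DESeq2 did not call it in 2 pools either (-1.72, adjusted p = 0.0761), nor *Atp6v0c* (2.63, adjusted p = 0.0812). *Ctsf* stood at 12.7, 16.2, 33.8 and 88.2 CPM against 63.1, 50.4, 59.4 and 71.6 CPM (-2.19 ± 0.36), again with pool 13 in the other direction. These osteoclast-like levels of *Ctsf* come from 10, 5, 3 and 10 UMIs. *Ctsf* was not called without pool 1 (-0.99 ± 0.41, adjusted p = 0.059), nor was *Atp6v0c* (1.78 ± 1.17, adjusted p = 0.284). *Ctsh* stood at 40.5, 77.6, 0 and 52.9 CPM against 137, 116, 193 and 238 CPM (-1.36 ± 0.24), and every pool had the lower level in osteoclast-like cells. *Lamp1* (ENSMUSG00000031447, chr8:13159161-13175338) stood at 333, 343, 147 and 265 CPM against 438, 462, 464 and 496 CPM (-0.52 ± 0.16), and *Lamp2* at 86.03, 109.9, 67.6 and 132 CPM against 217, 223, 226 and 217 CPM (-1.30 ± 0.21). Neither LAMP gene overlapped between the types.

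Of the other lysosome genes, 32 were higher and 3 lower in osteoclast-like than in mesenchymal cells, with *Laptm5* (6.52) and *Cd68* (6.05) among the higher ones. The lower ones were *Laptm4a* (-1.41), *Cd164* (-0.94) and *Sort1*, which had no UMI in the osteoclast-like cells of pools 1 and 2, so that no fold is given. *Atp6v0d2* (8.92 ± 0.21) and *Ctsk* (6.22 ± 0.14) were higher, *Atp6v1c2* had no UMI in osteoclast-like cells, and *Atp6v1g2* and *Atp6v0e2* were not called. *Tfec* (5.43), *Rragd* (3.99), *Mitf* (3.63), *Fnip1* (1.86), *Flcn* (1.64), *Rragc* (1.44) and *Rptor* (1.39) were higher, *Rraga* (-0.72) was lower, and *Tfe3* (0.43 ± 0.40, adjusted p = 0.43) and *Mtor* (0.20 ± 0.40, adjusted p = 0.737) were not called.

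Set against macrophage-like cells of the same pools, the osteoclast-like cells had higher levels of most proton pump genes and lower levels of most cathepsins measured here. In 2 pools, 15 of the 36 genes were higher, 13 lower and 8 not called (background 13% and 14.1%), with a median of 0.02 against -0.07 over all genes. The fit on 2 pools again has 1 residual degree of freedom, so its p-values rely on dispersion moderated over genes. In 4 pools, 15 of 35 were higher and 11 lower (background 13.5% and 15%). Of the V-ATPase genes 13 of 17 were higher and 2 lower (median 0.99), with all 8 of the V1 sector and both accessory genes higher. Of the cathepsins none was higher and 6 of 9 were lower (median -1.64).

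The V0 a-subunits diverged. In pools 1, 2, 9 and 13, *Atp6v0a1* (ENSMUSG00000019302, chr11:101009452-101063719), the a1 form, stood at 13.9, 16.2, 0 and 0 CPM in osteoclast-like cells and 126, 133, 76.6 and 67.1 CPM in macrophage-like cells, a log2 difference of -3.15 ± 0.30 (edgeR adjusted p = 1.5e-24). *Tcirg1*, the a3 form, stood at 954, 959.8, 1511 and 617 CPM against 471, 546, 348 and 305 CPM, a difference of 0.89 ± 0.13 in 2 pools and 1.16 ± 0.20 in 4. Neither gene overlapped between the types, and they lay in opposite order. *Atp6v0a2* was not called (0.63 ± 0.33, adjusted p = 0.156), with 26.6, 48.5, 45.1 and 26.5 CPM against 21.4, 22.2, 16.1 and 16.9 CPM. The d-subunits also took different courses. *Atp6v0d1* stood at 199.9, 197, 293 and 159 CPM against 311, 326, 219.6 and 245 CPM and was lower in 2 pools (-0.70 ± 0.16), but was not called in 4 (-0.51 ± 0.19, adjusted p = 0.0512). *Atp6v0d2*, the osteoclast-linked d2 form outside the 36, stood at 1384, 1108, 1646 and 1419.7 CPM against 302, 288, 195 and 149 CPM (2.04 ± 0.14).

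The largest higher values were in the stalk and accessory parts of the pump. *Atp6v1d* stood at 629, 582, 902 and 459 CPM against 164, 161, 161 and 138 CPM (1.87 ± 0.14), and *Atp6v1g1*, a stator subunit, at 3809, 3209, 2717 and 2654 CPM against 1136, 979, 798 and 847 CPM (1.70 ± 0.13). *Atp6ap2* stood at 525, 569, 519 and 467 CPM against 178, 159, 156 and 132 CPM (1.66 ± 0.15). None of the 3 overlapped between the types. *Atp6v0b* differed by 1.10 ± 0.13, *Atp6v1c1* by 1.25 ± 0.14 and *Atp6v0e* by 1.22 ± 0.13. Beyond the pump, *Hexa* stood at 1389, 1661, 1984 and 1569.5 CPM against 572, 688, 659 and 785 CPM (1.24 ± 0.13), and *Npc2*, the lumenal cholesterol carrier, at 2628, 2549.7, 4465 and 3095 CPM against 1087, 1196, 1363 and 1389 CPM (1.15 ± 0.13).

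**Figure D3:**
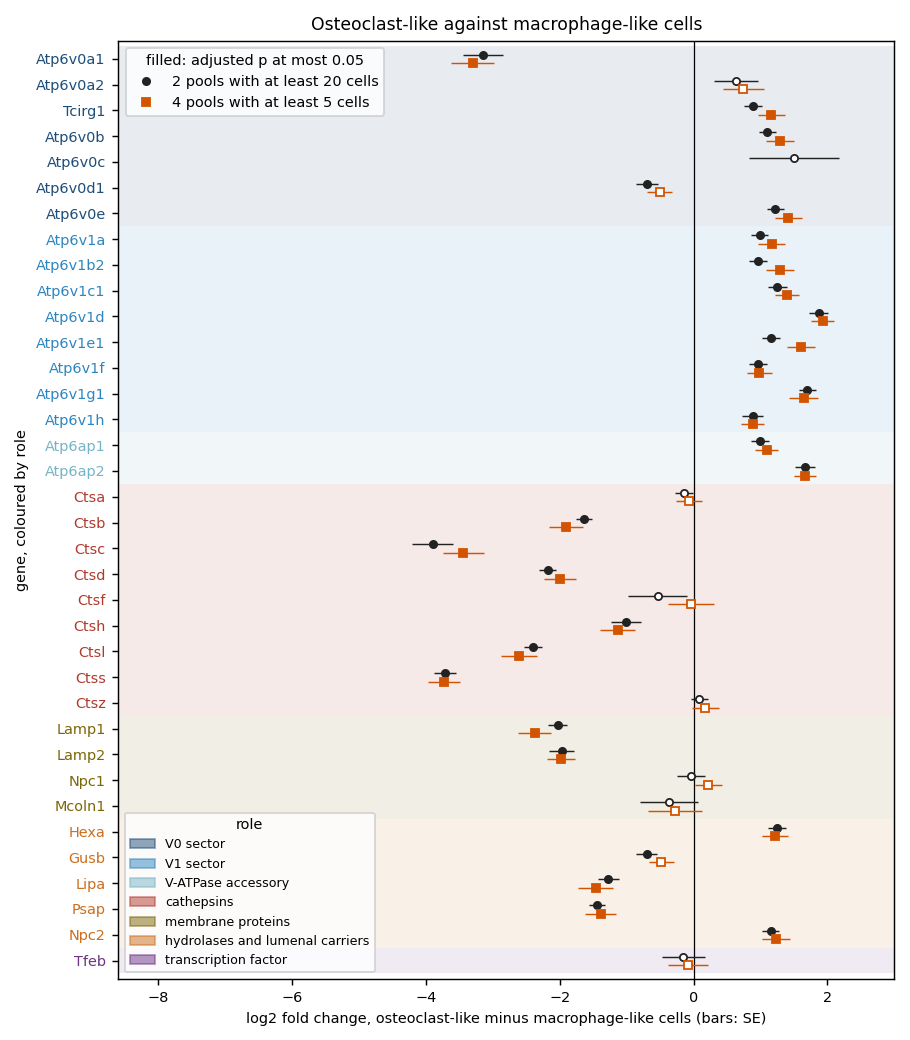
Log2 fold change of osteoclast-like against macrophage-like cells for the 36 genes, grouped by role, in the fit on 2 pools and that on 4 pools, with bars of 1 standard error (edgeR). V1 genes lie between 0.88 and 1.87 in 2 pools, whereas *Ctsc*, *Ctss* and *Atp6v0a1* lie lowest at -3.90, -3.72 and -3.15.

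Cathepsins C and S lay lowest. *Ctsc* stood at 7.59, 19.4, 22.5 and 44.1 CPM in osteoclast-like and 167, 157, 216 and 171 CPM in macrophage-like cells (-3.90 ± 0.31), and *Ctss* at 123, 129, 203 and 79.4 CPM against 1446, 1896, 1665 and 1669 CPM (-3.72 ± 0.16). *Ctsl* stood at 733, 310.2, 158 and 414 CPM against 3174, 2043, 2144 and 1708 CPM (-2.40 ± 0.14). The types did not overlap for any of these 3 genes. *Ctsd* stood at 1378, 1432, 1094 and 1199 CPM against 6151, 6297, 3837 and 3543 CPM (-2.18 ± 0.13), and *Ctsb* (-1.64 ± 0.12) and *Ctsh* (-1.02 ± 0.22) were also lower. *Ctsk*, the collagen-degrading cathepsin outside the 36, lay in the opposite direction, at 10033, 9459, 15739 and 8227 CPM against 1234, 828, 438 and 543 CPM (3.23 ± 0.13). *Ctsk* and *Ctss* are neighbours on chromosome 3, with 17423 bases and 0 annotated genes between them, so adjacent genes differed in opposite directions between these cell types.

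The LAMP genes were lower, with *Lamp1* at 333, 343, 147 and 265 CPM against 1337, 1363, 1462 and 1415 CPM (-2.03 ± 0.14) and *Lamp2* at 86.03, 109.9, 67.6 and 132 CPM against 352, 390.1, 412 and 372 CPM (-1.98 ± 0.18). *Psap* (-1.45 ± 0.12) and *Lipa* (-1.28 ± 0.16) were lower in 2 pools and in 4 (-1.39 ± 0.23 and -1.47 ± 0.26), while *Gusb* was lower in 2 (-0.70 ± 0.16) and not called in 4 (-0.48 ± 0.18, adjusted p = 0.0551). *Ctsa*, *Ctsf*, *Ctsz*, *Npc1*, *Mcoln1*, *Tfeb*, *Atp6v0a2* and *Atp6v0c* were not called in 2 pools. The following 3 genes thus had opposite calls against mesenchymal cells in the 2 myeloid types: *Ctsc*, *Lamp1* and *Lamp2* were higher in macrophage-like cells (3.21, 1.62 and 0.84) and lower in osteoclast-like cells (-1.87, -0.52 and -1.30), where the call of *Ctsc* rests on pool 1. Both comparisons share the mesenchymal cells of pools 1 and 2. The direct comparison of the types measures the difference, but in the same macrophage-like and osteoclast-like cells. Because the genes were picked by their opposite calls, its direction is not independent support.

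**Figure D4:**
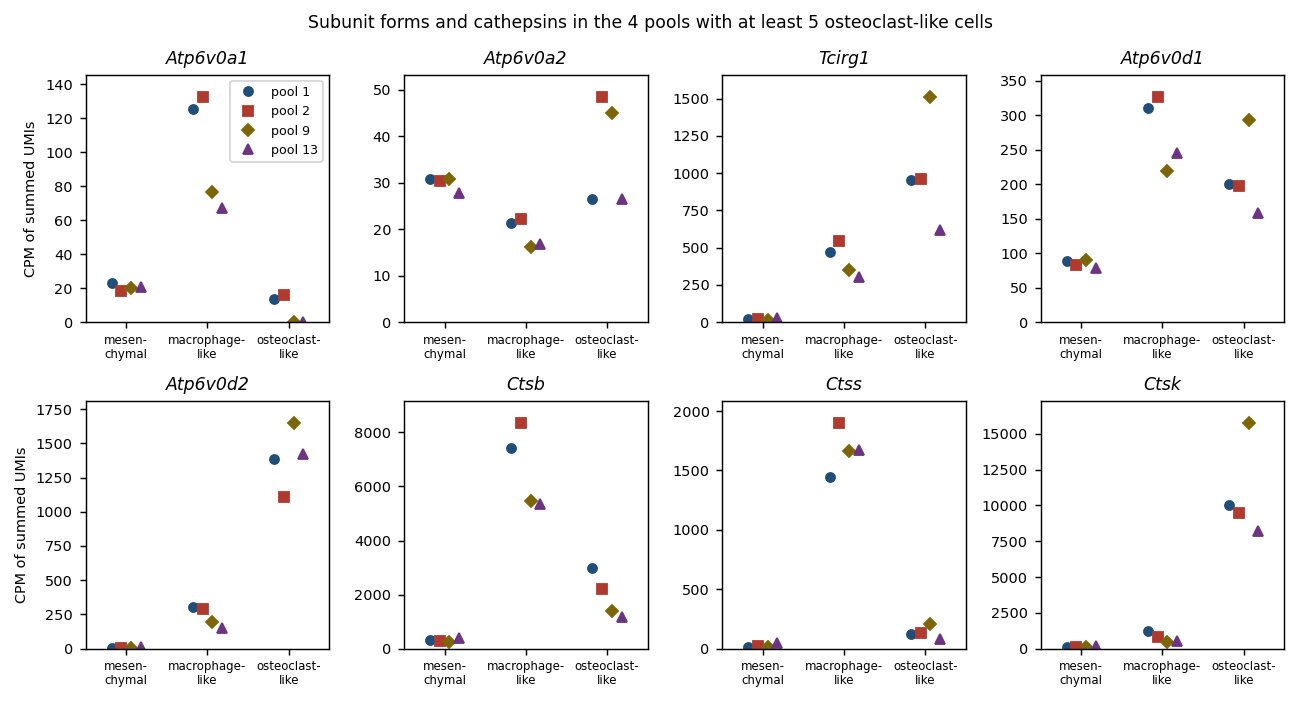
Levels (CPM, axes from 0) of paralogous subunits and cathepsins in pools 1, 2, 9 and 13, 1 point per pool and cell type for mesenchymal, macrophage-like and osteoclast-like cells. *Tcirg1*, *Atp6v0d2* and *Ctsk* are highest in osteoclast-like cells in every pool (*Ctsk* at 8227 to 15739 CPM), while *Ctss* and *Ctsb* are highest in macrophage-like cells.

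Of the other lysosome genes, 13 were higher and 14 lower in osteoclast-like than in macrophage-like cells, with *Arsb* (2.75), *Gnptab* (1.90) and *Gm2a* (1.86) at the upper end and *Slc11a1* (-2.47) and *Lgmn* (-2.28) at the lower, beside *Sort1*, which had no UMI in the osteoclast-like cells of pools 1 and 2. *Rragd* (1.20 ± 0.25) was higher and *Tfe3* (-1.22 ± 0.31) and *Rraga* (-0.89 ± 0.24) were lower, and *Mitf* (0.05 ± 0.23, adjusted p = 0.923), *Tfec* (-0.54 ± 0.31, adjusted p = 0.196), *Mtor*, *Rptor*, *Flcn*, *Fnip1* and *Rragc* were not called. *Atp6v0e2* was not called and *Atp6v1g2*, *Atp6v1c2*, *Atp6v1b1* and *Atp6v0a4* were too low to test, the last 3 with 0 UMIs in osteoclast-like cells. Of the 8 leukocyte genes used in no marker list, 5 were lower and 1 higher in osteoclast-like cells. Their summed levels were 1561 to 1983 CPM in osteoclast-like cells of 4 pools, against 2824 to 3880.2 CPM in macrophage-like cells of all 16 pools. Of 7 stromal genes tested, 4 were higher and none lower, with sums over the same 4 and 16 pools of 409 to 979 CPM against 311 to 1141 CPM, and *Lum* was at 0 in osteoclast-like cells. Their part in these results was not tested. At 2000 UMIs per cell, *Tcirg1* was detected in 72.5% of 120 osteoclast-like and 43.6% of macrophage-like cells, *Atp6v1d* in 63.3% and 25.1%, *Ctss* in 22.5% and 88.7%, and *Lamp1* in 43.3% and 91.4% (unthinned 96.2% and 70.8%, 90.00% and 51.8%, 63.1% and 96.8%, and 86.9% and 98.03%). Of the 130 osteoclast-like cells, 37 had just the minimum of 4 markers.

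Among mesenchymal cells, marrow adipogenic lineage progenitors (MALPs, gated on *Adipoq* and *Lepr* among others) and osteoblasts (gated on *Bglap* and *Ibsp* among others) differed in both directions. Over 16 pools, 9 of the 36 genes were higher and 20 lower in MALPs (background 40.9% and 39.3%), with a median of -0.24 against 0.02 over all genes. TMM factors were 1.12 to 1.47 in MALPs and 0.68 to 0.88 in osteoblasts, so the log2 differences lie below the ratios of the plain CPM levels. The split depended on scaling. With library totals alone in place of TMM factors, 24 were higher and 7 lower. The median of all genes moved from 0.02 to 0.69, so that a value near 0 gives an order only relative to the other genes. The share of all genes called with library totals alone is not given, so the 24 and 7 cannot be set against a background. Under that scaling *Atp6v0e*, *Atp6v1c1*, *Atp6v1d*, *Atp6v1e1*, *Atp6v1f*, *Ctsd*, *Ctsz* and *Gusb* were called in the other direction, and *Atp6v0a2*, *Lamp1*, *Hexa*, *Mcoln1* and *Tfeb* lay above 0 without a call.

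Relative to all genes, the largest higher values in MALPs were those of *Lipa*, at 36.7, 43.7 and 63.6 CPM against 9.76, 12.5 and 19.5 CPM in osteoblasts (1.19 ± 0.07), and *Atp6ap2*, at 96.01, 133 and 184 against 35.5, 47.7 and 57.04 CPM (0.83 ± 0.05). *Tcirg1* was at 19.5, 29.00 and 45.6 against 6.10, 10.95 and 14.96 CPM (0.76 ± 0.07). Each of these 3 was higher in 16 of 16 pools, and all kept their direction under both scalings. The limit given above for free RNA was taken over all mesenchymal cells, where it covers *Lipa* and *Tcirg1*. It was not worked out for MALPs or osteoblasts apart. The median cell held 6869 UMIs among MALPs and 19078.5 among osteoblasts. As UMIs per cell, by unpaired medians over pools, 6 of the 9 genes called higher were also higher in MALPs, whereas *Atp6v1b2*, *Atp6v1h* and *Lamp2* were not. *Atp6v0a1* was at 36.01, 40.5 and 50.3 against 12.96, 17.6 and 20.3 CPM (0.62 ± 0.06) and *Atp6v1b2* at 47.4, 71.7 and 92.3 against 25.2, 30.4 and 38.01 CPM (0.51 ± 0.05).

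Cathepsin H showed the largest lower value, at 38.4, 67.1 and 136 CPM in MALPs and 172, 306 and 391 CPM in osteoblasts (-2.79 ± 0.13, adjusted p = 8.3e-14), lower in 16 of 16 pools and without overlap of the ranges. *Ctsa*, the protective protein of lysosomal neuraminidase and galactosidase, was at 109, 131 and 235 against 146, 243 and 394 CPM (-1.50 ± 0.08). *Atp6v0b*, a proteolipid of the V0 ring, was at 186, 213 and 288 against 228, 323 and 382 CPM (-1.17 ± 0.07). All of these stayed lower when scaled by library totals, at -2.12, -0.83 and -0.50. *Atp6ap1* was at 64.1, 84.6 and 111 against 88.95, 111 and 145 CPM (-1.11 ± 0.05) and *Ctsf* at 48.7, 55.7 and 104 against 53.9, 83.9 and 114 CPM (-1.10 ± 0.08).

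**Figure D5:**
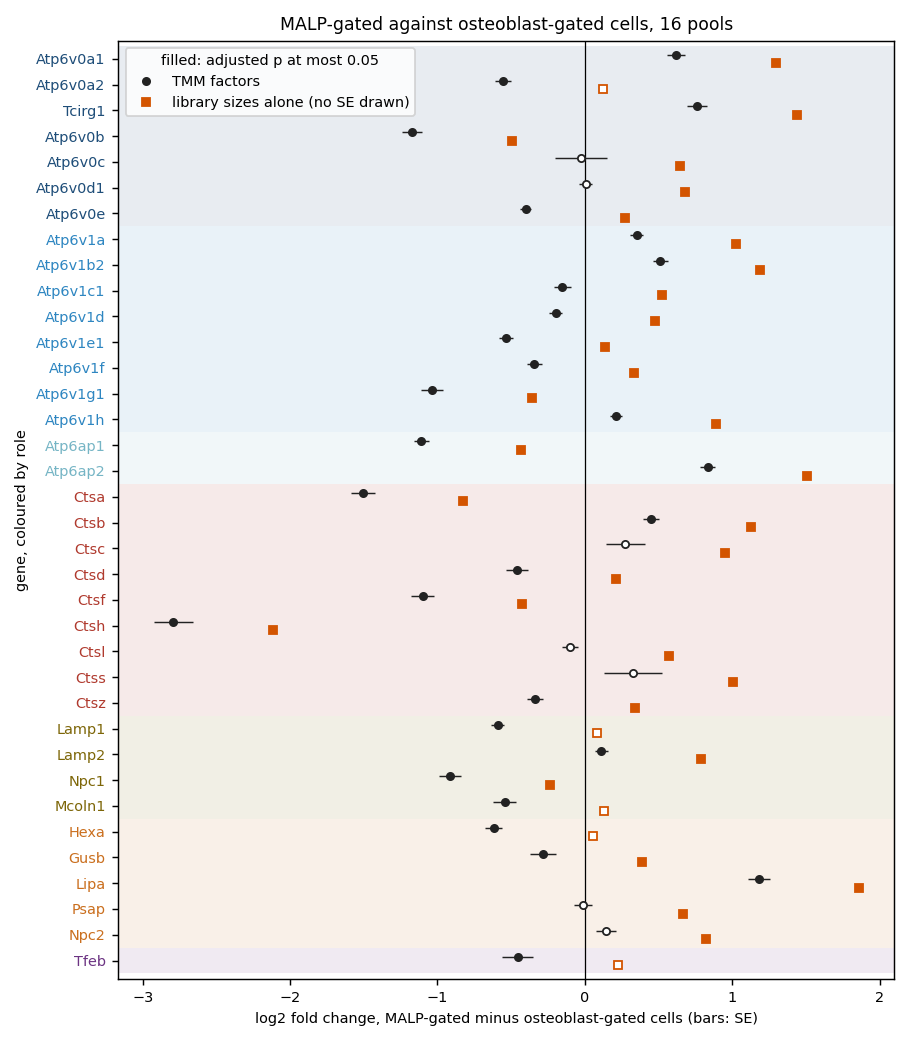
Log2 fold change of MALPs against osteoblasts for the 36 genes (edgeR, 16 pools), scaled by TMM factors and by library totals alone. The points scaled by totals lie to the right of the TMM points throughout, and *Ctsh* has the lowest value under both (-2.79 and -2.12).

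Of the other lysosome genes, 15 were higher and 23 lower in MALPs, with *Pla2g15* (3.003), *Gnptab* (1.74) and *M6pr* (1.73) at one end and *Glb1* (-1.30), *Neu1* (-1.13) and *Galns* (-1.10) at the other. *Atp6v1c2*, the C2 subunit outside the 36, was at 12.6, 19.9 and 44.5 CPM in MALPs and 0, 0.107 and 0.516 CPM in osteoblasts (6.75 ± 0.19). *Atp6v0d2* (0.80 ± 0.27), under the same free RNA limit, was higher and *Ctsk* (-0.999 ± 0.07) and *Atp6v0e2* (-2.51 ± 0.27) were lower. *Mitf* (0.25, under the free RNA limit), *Tfe3* (0.23) and *Rragc* (0.22) were higher, *Rragd* (-3.54), *Mtor* (-0.98) and *Fnip1* (-0.43) were lower, and *Rptor*, *Flcn* and *Rraga* were not called. Of the leukocyte genes used in no marker list, 5 of 8 were higher and 1 lower in MALPs, with sums of 36.8 to 220.2 CPM against 18.5 to 47.3 CPM, and their part was not tested.

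The spread over pools was taken as the ratio of the highest to the lowest level. Over 16 pools it had a median of 1.77 over the 36 genes in macrophage-like cells and 1.74 in mesenchymal cells, and it was at most 2 for 25 and 27 of the genes. Among the subtypes it was at most 2 for 29 of 35 genes in C1q/Stab1 and 20 of 35 in Gpnmb/Trem2 macrophages. In MHC class II/Ear2 cells, over 10 pools with fewer cells, the median ratio was 2.52, and 8 of 35 genes were at most 2. *Lamp1* varied least in macrophage-like and mesenchymal cells, by 1.31-fold and 1.38-fold. In mesenchymal cells *Ctss* varied most, by 8.83-fold, with pool 3 lowest and pool 13 highest, while the summed leukocyte genes used in no marker list were at 23.9 to 108 CPM in the same cells. In macrophage-like cells, *Ctsd* lay between 2084 and 6297 CPM and *Lipa* between 180.0 and 564 CPM.

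Sequence shared with other genes limits a pair of the counts. Of the 50-base stretches in the last 500 bases of the annotated transcripts, 36.6% of those of *Atp6v0c* also occur in the pseudogenes *Atp6v0c-ps1* and *Atp6v0c-ps2*, and 18.5% of those of *Atp6v1f* in the gene model AC169506.3. Reads from such stretches may not have been counted, so levels of both genes are uncertain. *Atp6v0c*, the c subunit of the V0 ring, was at 1.67, 4.03 and 7.19 CPM in macrophage-like and 0.691, 1.25 and 2.05 CPM in mesenchymal cells. The corresponding share was 1.92% for *Ctsc*, 0.682% for *Ctsa* and 0 for the other members.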

How the data were processed

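UMIs of osteogenic marrow cultures were measured in 16 pools sequenced in 2 runs (32 samples). Per the labels and the paper's methods, the authors made the deposited counts, which are unnormalized whole UMIs for each gene in each droplet, with Cell Ranger 5.0.0 against mm10 (GRCm38), before their own filters. The labels name the 3′ v2 kit. Run HGYVNCCX2 was used, and run HHFFMCCX2, of the same droplets, was an alternative.

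Cells with 400 to 6200 genes and at most 10% mitochondrial, 20% *Rpl* and 15% *Rps* UMIs were kept. Doublets were called against simulated doublets (2 per droplet, 30 principal components, 2000 genes), 0.8% for each 1000 barcodes of a pool, and 5129 were removed. Cells were split by the log2 ratio of leukocyte to stromal markers and then by marker lists, with cutoffs set after the cells were seen, so 11834 cells stayed unassigned, and 1784 macrophage-like and 3064 mesenchymal cells lay near a cutoff. Free RNA was not removed. For each cell class the UMIs of a pool were added up, and edgeR 4.0.16 under R 4.3.3 tested the sums by its quasi-likelihood method, with the pool as block, TMM factors and the filterByExpr filter. Standard errors were obtained from the fold change and its F statistic. On simulated counts with 200 genes changed by 1 on the log2 scale, the test recovered 92% (13258 genes) for macrophage-like against mesenchymal cells and 23.5% (13205 genes) for osteoclast-like against mesenchymal cells. Classes of a pool come from the same droplet library and the same set of mice, which pairs them. Mice were not separated, so the share of each mouse may differ between the classes of a pool. The correlation of deviations within a pool was at least 0.0414 in every comparison, with medians of 0.118 to 0.359. P-values cover the spread between pools of the difference between 2 classes, with dispersion moderated over genes. In the osteoclast comparisons on 2 pools, with 1 residual degree of freedom, they rely on that moderation. Intervals for counting error are not given because pools were the replicates.

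The genes, marker lists and tests were chosen with earlier results of these data known. All 36 genes could be named. Up to 5 with the largest difference in each direction, and those called in opposite directions, are given as the lowest, median and highest pool (by pool for osteoclast-like cells), and the subtypes against mesenchymal cells as differences alone. Also named are up to 3 of the other lysosome genes in each direction and the fixed lists of regulators and osteoclast-linked genes. Among the other lysosome genes, a gene that this rule names in 2 comparisons is not reported here. The pools with at least 5 osteoclast-like cells and the left-out pools among them were added after seeing the data. Alternatives were the other run, DESeq2 1.42.0 and its size factors, library totals alone, no count filter, no block, stricter gates, other cell minimums, at least 3000 UMIs per cell, doublets kept, no upper gene limit, and left-out pools.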

Additional observations from a re-analysis of the deposited data

Results flagged for a closer look

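Among MHC class II/Ear2 cells, *Atp6v0b* was at 903 CPM in pool 2, with the nearest of the other 9 pools at 737 CPM, a gap that passes Dixon's criterion at 95%. In osteoclast-like cells, *Atp6v0c* was at 0 CPM in pool 9, which held 7 such cells, against 8.82 to 9.69 CPM in the other 3 pools. Its levels in pools 1, 2, 9 and 13 come from 7, 3, 0 and 1 UMIs, so this gap rests on very few counts. The *Atp6v0b* and *Atp6v0c* gaps were 2 of 72 groups of pools tested, and chance passes the criterion in about 1 of 20.

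*Ctsc*, *Lamp1* and *Lamp2* were called in opposite directions against mesenchymal cells in macrophage-like and osteoclast-like cells, and the difference itself was tested by edgeR in pools 1 and 2. For *Ctsc* it was -3.90 on the log2 scale (adjusted p = 4.6e-35), for *Lamp1* -2.03 (adjusted p = 2.3e-43) and for *Lamp2* -1.98 (adjusted p = 8.6e-26), each lower in osteoclast-like cells in both pools. With 1 residual degree of freedom, these p-values rely on dispersion moderated over genes. The osteoclast-like level of *Ctsc* comes from 6 UMIs in pool 1 and 6 in pool 2. The genes were picked by their opposite calls in the same cells, so the direction is not independent support. The call of *Ctsc* against mesenchymal cells rests on pool 1, without which it was -0.42 ± 0.51 (adjusted p = 0.591) over 3 pools with at least 5 osteoclast-like cells.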

How the results depend on the processing

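Of the tests of single genes under the alternatives, 4094 kept direction and side of the threshold, 54 lost the call, 46 gained one and 21 changed direction. Scaling by library totals alone moved MALPs against osteoblasts to 24 higher and 7 lower, where the median of all genes rose from 0.02 to 0.69. Its values for genes that changed direction were 0.12 for *Atp6v0a2*, 0.65 for *Atp6v0c*, 0.27 for *Atp6v0e*, 0.52 for *Atp6v1c1*, 0.48 for *Atp6v1d*, 0.14 for *Atp6v1e1*, 0.33 for *Atp6v1f*, 0.21 for *Ctsd*, 0.57 for *Ctsl*, 0.34 for *Ctsz*, 0.0833 for *Lamp1*, 0.0563 for *Hexa*, 0.39 for *Gusb*, 0.66 for *Psap*, 0.13 for *Mcoln1* and 0.22 for *Tfeb*. In the same comparison stricter gates gave 0.0628 for *Gusb* and 0.39 for *Psap*, and keeping doublets gave -0.56 for *Ctss*. For Gpnmb/Trem2 against C1q/Stab1 macrophages, library totals alone gave 0.0429 for *Npc2* and stricter gates 0.0067 for *Gusb*, neither called, and the cause was not tested.

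For MHC class II/Ear2 cells against C1q/Stab1 macrophages, 1 gene was higher with run HHFFMCCX2, with library totals alone, without a filter on low counts and with at least 5 cells, and 1 was lower with stricter gates (6 pools) and 11 with at least 5 cells (16 pools). A minimum of 50 cells ended 2 calls in this comparison and 1 for Gpnmb/Trem2 against C1q/Stab1 macrophages. The cause of these changes was not tested. Leaving out pool 1 or 13 gave 17 to 19 higher and 8 lower for Gpnmb/Trem2 against C1q/Stab1 macrophages, 10 higher and 20 lower for MALPs against osteoblasts, and 33 higher and 3 lower for macrophage-like cells and for C1q/Stab1 and Gpnmb/Trem2 macrophages against mesenchymal cells. With at least 5 cells and pool 1, 2, 9 or 13 left out, osteoclast-like cells had 26 to 27 higher and 4 to 7 lower against mesenchymal cells, and 15 to 16 higher and 11 to 13 lower against macrophage-like cells. A minimum of 50 cells left no osteoclast comparison with a replicate. With DESeq2, osteoclast-like cells had 26 higher and 4 lower against mesenchymal cells, without calls for *Ctsc* and *Atp6v0c*, and 15 and 13 against macrophage-like cells. With DESeq2's size factors in edgeR, the median of all genes against mesenchymal cells moved from -0.07 to -0.22 in macrophage-like cells and from -0.22 to -0.42 in MHC class II/Ear2 cells.

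Without the replicate block (the pool), 16 genes were higher and 6 lower for Gpnmb/Trem2 against C1q/Stab1 macrophages, and 2 were higher and 5 lower for MHC class II/Ear2 cells against C1q/Stab1 macrophages; the other counts of higher and lower genes did not move. Pools 1 and 13 held too few MHC class II/Ear2 cells to enter those comparisons, so none was left out there. The osteoclast comparisons rest on 2 pools: on simulated counts, fits on them recovered 23.5% (13205 genes) against mesenchymal and 35% (10696 genes) against macrophage-like cells of the genes changed by 1 on the log2 scale, so that a gene not called there may still differ.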

Other observations

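Lysosome genes were also measured in the other leukocytes of the cultures, given here as the lowest, median and highest pool. In basophil and mast cell-like cells (3 pools with at least 20 cells), *Ctsc* was at 185, 307 and 315 CPM, beside a median of 206 CPM in macrophage-like cells, and *Ctsd* at 623, 1015 and 1618 CPM. In B-cell-like cells (4 pools), *Ctss* was at 335, 402 and 519 CPM, and in T-cell-like cells (4 pools) at 44.3, 110.3 and 166 CPM. Granulocyte-like cells (11 pools) had *Atp6ap2* at 93.4, 190.2 and 279 CPM, *Atp6v1e1* at 167, 320.1 and 595 CPM and *Ctss* at 5.39, 43.98 and 223 CPM. At 2000 UMIs per cell, *Ctss* was detected in 54.4% of 147 B-cell-like, 19.2% of 339 T-cell-like and 7.17% of 1256 granulocyte-like cells, against 4.59% of mesenchymal cells (unthinned 95.2%, 39.8%, 11.8% and 14.9%). The free RNA share was not worked out for these classes. Their summed macrophage markers (6 genes) had medians of 49.9 CPM in T-cell-like, 60.8 in B-cell-like, 188 in basophil and mast cell-like and 239 in granulocyte-like cells. The median was 2095 CPM in macrophage-like cells. The part of free RNA in these levels was not tested, nor were differences between these classes.

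Late mesenchymal progenitor-gated cells (10815 cells, 16 pools) had *Ctsh* at 85.5, 145 and 227 CPM, between MALPs with a median of 67.1 CPM and osteoblasts with 306 CPM, and *Atp6v1a* at 62.1, 85.1 and 110.3 CPM, between osteoblasts with 52.2 CPM and MALPs with 108 CPM. These levels were not tested.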
